A study of Mus musculus with 3 samples.

Results

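Long stretches of nearly continuous enrichment for biotin-tagged Utf1 are described here. They were found in the peak list of the biotin precipitation by joining peaks with at most 1000 bp between them and keeping joined stretches of 20000 bp or more on chromosomes 1 to 19. This gave 245 stretches out of 114916 in the whole list, or out of 112022 on chromosomes 1 to 19. They contain 2009 of the 152608 biotin peaks. The members were thus selected on the positions of the biotin peaks. Their length, peak number, tags, fold enrichment, flanks and chromosome position are therefore a description. Only the endogenous Utf1 peaks inside them come from values that the choice did not use.

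The series measured Utf1 by chromatin immunoprecipitation with sequencing (ChIP-seq) in KH2, a mouse embryonic stem cell line, cultured with 15% serum and LIF on a layer of irradiated mouse embryonic fibroblasts. There were 3 groups with 1 library each: biotin-tagged Utf1 from KH2 cells, endogenous Utf1 from KH2 cells, and a whole-cell extract of KH2 cells without precipitation, whose values were not analysed here. The cells of all groups were fixed for 5 min in 1% formaldehyde. The protocol names streptavidin beads for the biotin precipitation, while the antibody field of this library and of the endogenous library holds an identical Utf1 entry. All groups are labelled as KH2 cells, and the labels do not say whether feeder cells were removed before fixation. Tagged and endogenous Utf1 were precipitated in separate libraries, so differences between them cannot be assigned to tag, cells or reagent. No group was replicated, and every interval printed below covers counting error only.

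Utf1 (undifferentiated embryonic cell transcription factor 1) belongs to the proteins of pluripotent cells and early germ cells and binds tightly to chromatin. It is known in embryonic stem cells for occupying many promoters, including bivalent promoters that carry both active and Polycomb marks, and for limiting the loading of Polycomb repressive complex 2 there. A ChIP-seq peak caller lists separate regions, so a wide domain of enrichment appears either as a single very wide peak or as a row of neighbouring peaks with short gaps. A stretch as used here is such a row.

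The 245 stretches together spanned 6.86 Mb, which is 0.277% of chromosomes 1 to 19. They held 1.34% of the biotin peaks and 3.53% of the tags that the authors listed on these chromosomes. Their lengths ran from 20008 bp to 149 kb with a median of 24.5 kb (interquartile range 21916 to 29970 bp). Most were close to the lower limit: 131 were shorter than 25 kb, 61 were at least 30 kb, 22 at least 40 kb and 8 at least 50 kb. The shortest members were chr5:111697871-111717878 and chr7:51779223-51799230, both 20008 bp long, and chr4:140259739-140279770 with 20032 bp. Just outside lay chr17:27184404-27204393 with 19990 bp, chr5:36701205-36721059 with 19855 bp and chr4:151796665-151816493 with 19829 bp. The members just inside had 57.1 to 92.3 tags per kb and the stretches just outside 51.6 to 76.5, so the limit cuts through a continuous range.

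The stretches were rows of peaks rather than single wide peaks. A stretch had a median of 8 peaks (interquartile range 6 to 10, range 1 to 22), and 20 of the 245 had a peak that filled over 50% of their length. The only stretch made of a single peak was chr8:125156739-125179425, 22.7 kb wide with 1644 tags and a fold enrichment of 7.76. Peaks covered 90.3% of the summed length, and the remainder was gaps. The 1764 gaps inside stretches had a median of 331 bp (interquartile range 131 to 590.75 bp). Of these, 620 (35.1%) were at most 200 bp wide and 94 were wider than 900 bp. From summit to summit the median distance was 2716 bp (interquartile range 1811.5 to 4214.75 bp).

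The peaks inside stretches were wider than the rest of the list, with a broad range of enrichment. The median member peak was 2126 bp wide (interquartile range 1224 to 3846 bp) with 133 tags and a fold enrichment of 5.10. The other 147489 biotin peaks on the same chromosomes had medians of 1081 bp, 53 tags and a fold of 4.14. Widths of 5 kb or more were found in 16.3% of member peaks and 0.917% of the others, and 61 member peaks reached 10 kb against 60 of all the others. Peaks with low folds were part of many stretches all the same. The lowest fold in a stretch had a median of 3.10 and the highest a median of 10.3, and 8.96% of member peaks had a fold under 3 against 14.1% of the others. A long stretch was therefore usually a mixture of strong, wide peaks and small peaks near the lower end of the list.

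No part of a stretch stood out along its length. In the 241 stretches with 3 or more peaks, the 482 outermost peaks had a median width of 2104 bp and a median fold of 5.17, and the 1520 inner peaks 2117.5 bp and 5.00. Over all 245 stretches, the summit of the peak with the highest fold lay in the first of 3 equal parts in 78 cases, in the middle part in 87 and in the last part in 80. The highest fold of any member peak, 28.72, was in chr4:154528679-154554672, a stretch of 26.0 kb with 8 peaks whose other folds went down to 3.79.

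The longest stretch, chr6:114438373-114587818, was almost fully covered by peaks. It was 149 kb long with 14 peaks, of which 3 were very wide, 35785, 31642 and 26879 bp. Peaks covered 99.4% of it, and the gaps were between 1 and 176 bp. Tags per kb were 32.7 in the first peak and 80.1 in the second, and from the third peak to the last they stayed between 91.9 and 133. Some distances between neighbouring summits in it were close to each other: 7179, 7197 and 7176 bp, and 4947 and 4939 bp, among 13 distances of 1572 to 33657 bp. This likeness was noticed after the values had been seen. The stretch had 111 tags per kb (95% interval 109 to 113), and no endogenous peak lay within 146 kb of it.

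The next stretches by length were built differently. In chr12:109442017-109517447, 75.4 kb with 11 peaks, a peak of 22945 bp with 1832 tags stood beside peaks of 1483 to 13855 bp, and folds ran from 3.62 to 13.96. In chr11:117893403-117966250, 72.8 kb, the 22 peaks were a mixture of dense and sparse. Its widest peak, 13376 bp with 1038 tags and 77.6 tags per kb, lay after peaks of 988 and 859 bp with 43 and 41 tags. Its highest fold, 12.41, belonged to a peak of only 1988 bp with 143 tags per kb. On chromosome 8, chr8:124744518-124809520 had 16 peaks in 65.0 kb with folds of 2.93 to 13.86, and on chromosome 10, chr10:80745825-80806721 had 18 peaks in 60.9 kb with folds of 2.76 to 10.10. The stretches ranked 6 to 10 by length were 46.8 to 53.2 kb long, with 7 to 20 peaks and 51.1 to 85.3 tags per kb. They were chr2:32738967-32792163, chr5:114835614-114888088, chr11:120084986-120137036, chr5:118494542-118544326 and chr10:60233995-60280813. Among the 10 longest, only the stretch on chromosome 6 exceeded 100 tags per kb.

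In 2 stretches the peaks were evenly spaced and nearly equal in size. The clearest was chr4:88417130-88453251, 36.1 kb with 13 peaks. After a small first peak of 1114 bp with 68 tags, 12 peaks followed that were 2436 to 2686 bp wide, had 405 to 469 tags and folds of 7.93 to 10.92, and were separated by gaps of 230 to 464 bp. Their 11 summit-to-summit distances lay between 2866 and 2991 bp, with a mean of 2925 bp (SD 35.6 bp over the 11 distances). The other was chr8:57974686-57999310, 24.6 kb with 8 peaks. Its last 7 peaks were 2362 to 2697 bp wide and had 283 to 383 tags and folds of 3.32 to 4.41. Their centres were 3137.5 to 3477.5 bp apart, with a mean of 3344 bp (SD 146 bp over 6 distances), whereas their summits were 2134 to 4485 bp apart.

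The evenness was measured as the coefficient of variation (SD over mean) within each of the 205 stretches with 6 or more peaks. For the distance between peak centres it was 0.0721 in the chromosome 4 stretch and 0.0885 in the chromosome 8 stretch, ranks 1 and 2, and the next was 0.185. The median of the 205 was 0.413. For peak width the same stretches had 0.169 and 0.186, again ranks 1 and 2, against a median of 0.721. For the distance between summits the chromosome 4 stretch ranked 1 with 0.0954, and the chromosome 8 stretch ranked 12. The longest stretch, on chromosome 6, was among the least even of the 205. It ranked 201 for centre distance, 193 for width and 186 for summit distance. Around the chromosome 4 stretch the nearest biotin peaks were 6560 bp away on the left and 60219 bp on the right, and flank cover was 23.9% on the left and 0 on the right. Around the chromosome 8 stretch they were 61870 bp away on the left and 18459 bp on the right. Neither held an endogenous peak. The chromosome 8 stretch was picked out after its values had been seen.

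**Figure D1:**
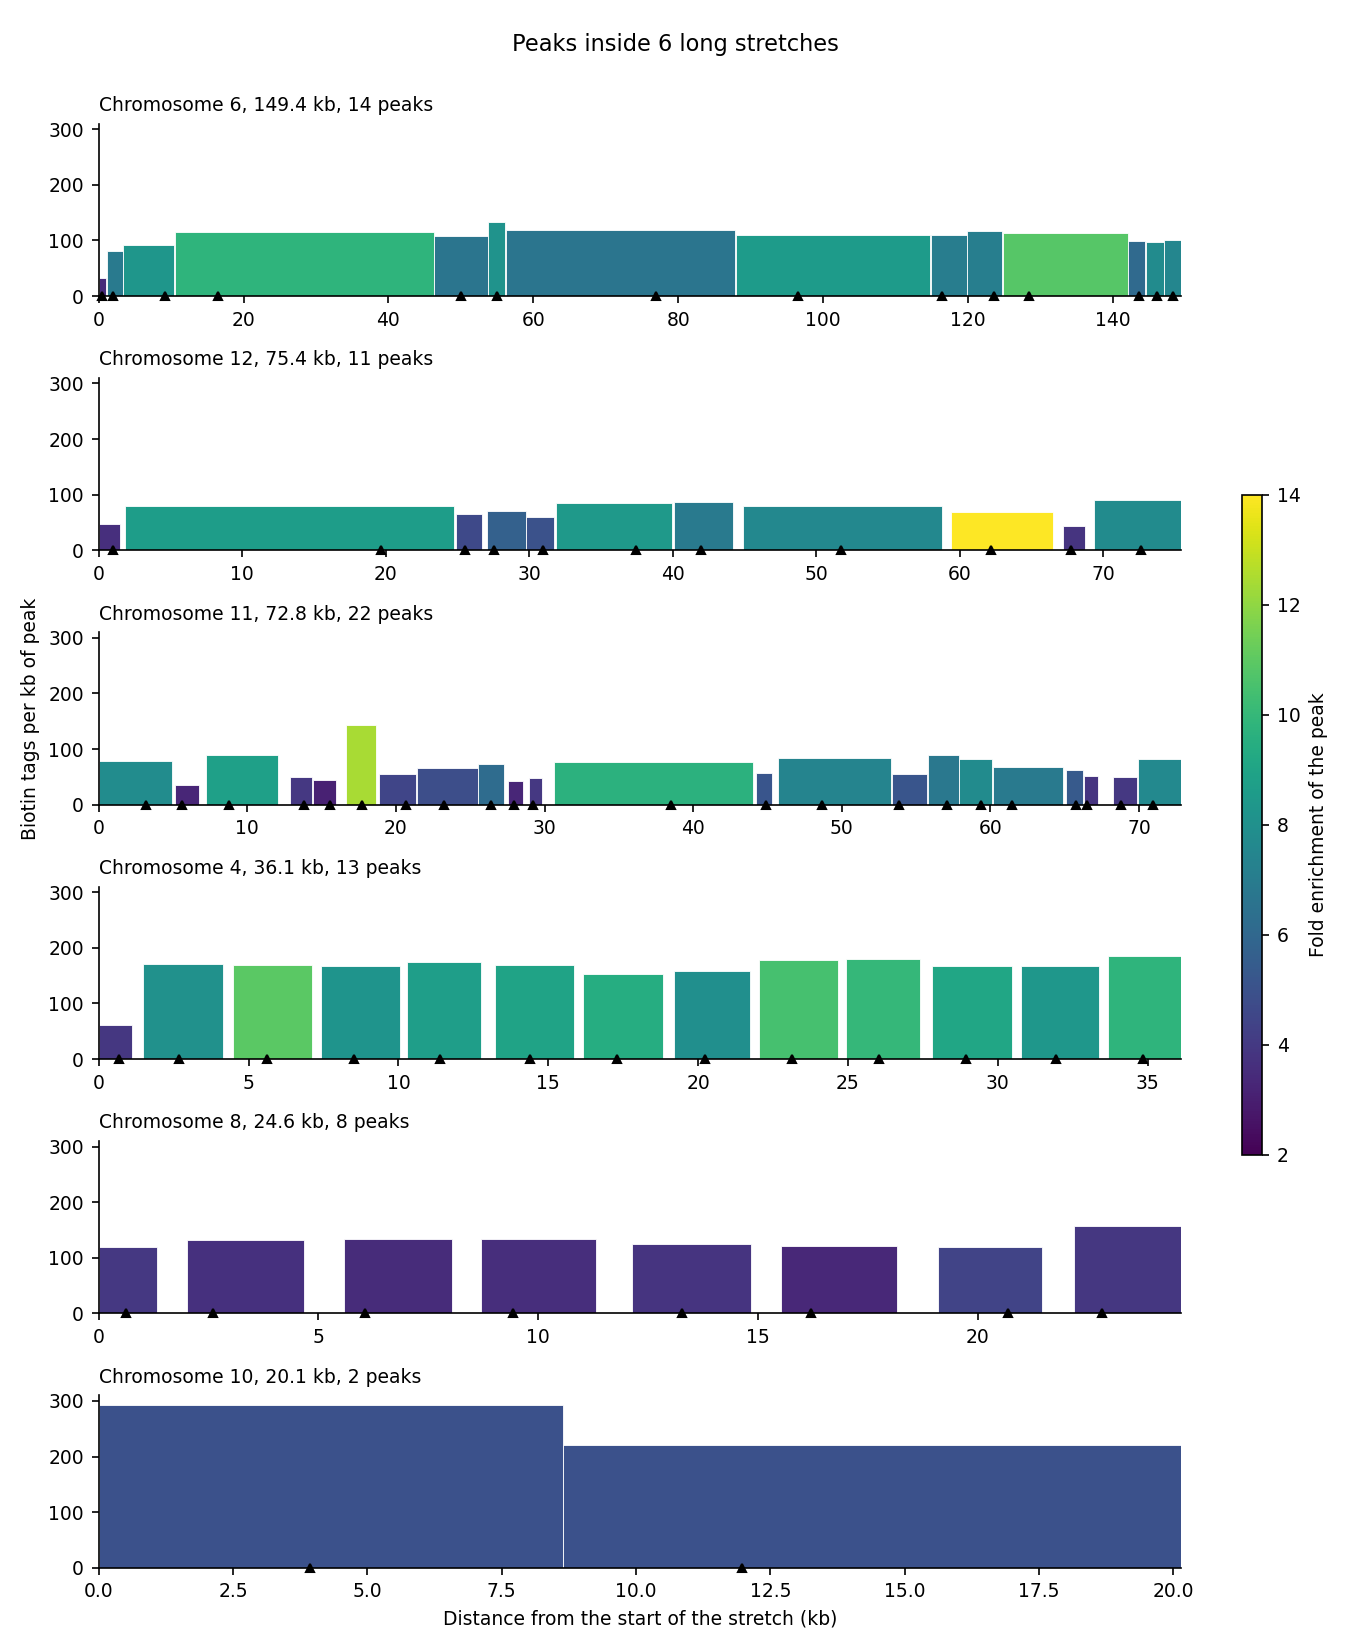
Peaks inside 6 stretches, drawn to scale along the distance from the start of the stretch in kb. Bar height is the biotin tags per kb of the peak, bar colour its fold enrichment, and triangles mark summits. The 13 peaks on chromosome 4 and the 8 on chromosome 8 form even rows, the chromosome 6 stretch is nearly flat after its first peaks, and the chromosome 11 stretch mixes dense and sparse peaks.

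Tag density was alike in most stretches, with a few far above the others. Over the whole length of a stretch the median was 67.7 tags per kb (interquartile range 59.3 to 76.7), and 221 of the 245 had between 50 and 100. Stretches of 10 to 20 kb had a median of 61.8, those of 5 to 10 kb 57.6, those of 2 to 5 kb 55.1 and those under 2 kb 44.2, so the density was higher in each longer class. Within the long stretches, however, length and tags per kb had a Spearman's rho of 0.06 (n = 245 stretches of 1 library). Tags per kb went with the covered share (rho 0.69) and with the median fold (rho 0.63), all of which are taken from the same tags.

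The 5 densest stretches were 20.1 to 36.1 kb long, and some combined many tags with a modest fold. The first was chr10:57683361-57703505, 20.1 kb with 2 adjoining peaks of 2532 and 2545 tags, 252 tags per kb (245 to 259) and folds of 4.98 and 4.99. The second was chr1:172993269-173016523, 23.3 kb with 203 tags per kb (197 to 209). Its first 3 peaks had 1365, 1609 and 1473 tags and folds of 6.06 to 6.21, and its last 2 peaks had 130 and 148 tags. The even stretch on chromosome 4 followed with 148 (144 to 152). Next were chr17:6438816-6459805 with 138 (133 to 143) and a highest fold of 12.53, and chr11:117165173-117189266 with 122 (117 to 126) and a highest fold of 14.59. The intervals of the first 3 do not overlap each other or those of the next. The stretches were ranked on the same tags, so this is a description and not a test.

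Tags per kb divided by the median fold of the peaks had a median of 12.5 over all stretches (interquartile range 10.9 to 14.4). The chromosome 10 stretch had 50.6, the chromosome 1 stretch 33.5 and the evenly spaced chromosome 8 stretch 27.3, the highest values of the 245, while the stretches on chromosomes 17 and 11 had 14.5 and 13.2. The background against which the authors' fold was taken is not stated in the sources at hand.

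At the other end, 13 stretches had fewer than 50 tags per kb. The sparsest was chr15:80145597-80166792, 21.2 kb long, in which 8 peaks had 892 tags, or 42.1 per kb (39.4 to 44.9). Then came chr8:124280512-124304050 with 44.6, chr15:83664995-83690536 with 45.0, chr19:5860597-5881177 with 45.7 and chr5:35726380-35761232 with 45.8. These 5 had 8 to 15 peaks, and peaks covered 74.1 to 83.2% of them, less than in the median stretch (90.2%).

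**Figure D2:**
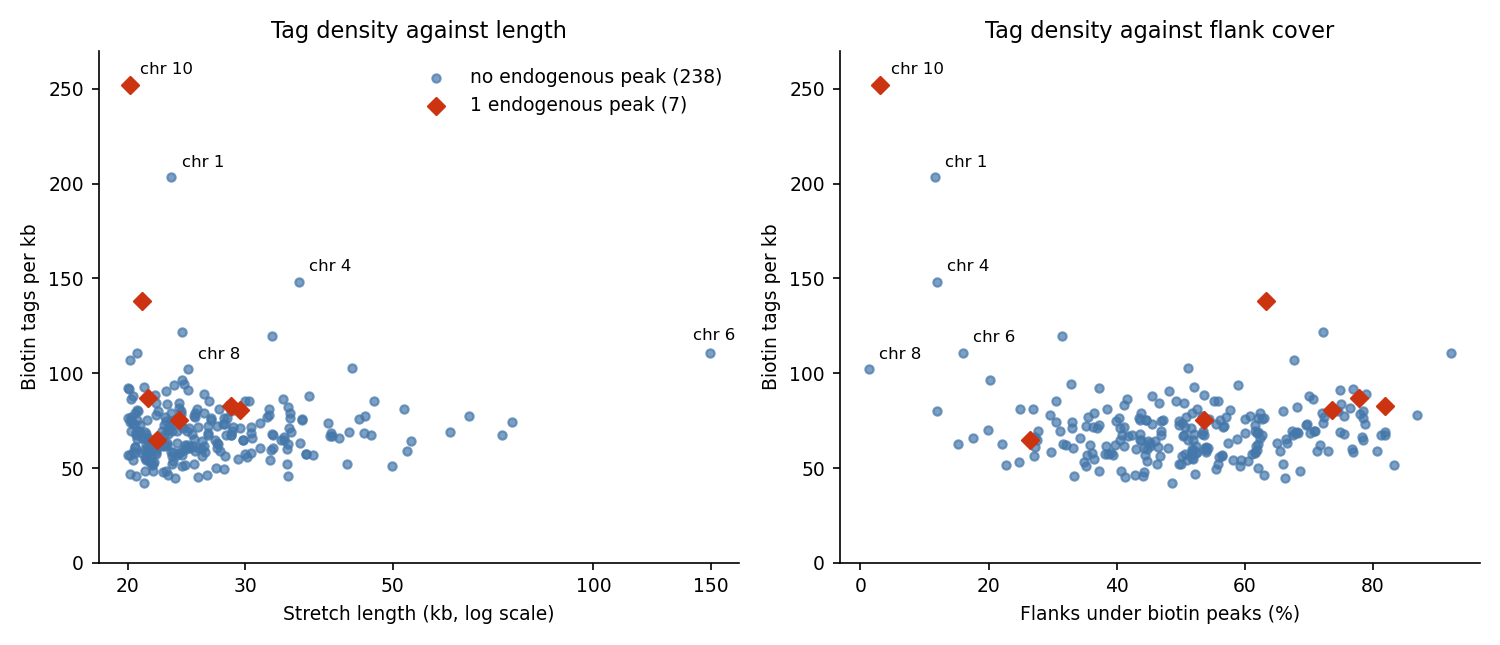
Each point is 1 of the 245 stretches, with biotin tags per kb against stretch length in kb on a log axis (left) and against the share of equally long flanks under biotin peaks (right). Red diamonds are the 7 stretches with an endogenous peak. Most points lie between 50 and 100 tags per kb at any length, and the labelled stretches on chromosomes 10, 1, 4 and 8 have both 102 or more tags per kb and flank cover under 12%.

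Most stretches did not end in empty sequence. In flanks as long as the stretch on each side, biotin peaks covered a median of 51.7% (interquartile range 40.7 to 62.4%), against 8.42% of chromosomes 1 to 19. Peaks of other long stretches in a flank count towards this cover. The rule leaves over 1000 bp free beyond each end. The next peak followed after a median of 2052 bp, 240 of the 490 ends had a peak within 2 kb, and in 17 the next peak was more than 10 kb away. Left and right flanks were alike, with medians of 51.1 and 53.7% and more cover on the left in 126 of 245 stretches. Beyond 5 kb, cover fell with distance to the nearest long stretch: it was 54.2% at 5 to 10 kb, 44.4% at 20 to 50 kb, 33.1% at 100 to 200 kb, 20.6% at 500 kb to 1 Mb and 6.36% beyond. Even at 500 kb to 1 Mb it was above the mean of chromosomes 1 to 19.

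Few stretches had little biotin signal beside them. Only 2 had both neighbouring peaks more than 10 kb away, the evenly spaced stretch on chromosome 8 and the densest one on chromosome 10. Flank cover was under 12% in 5, and 4 of these had over 100 tags per kb: the evenly spaced stretches on chromosomes 8 (1.30%) and 4 (11.9%), and the 2 densest, on chromosomes 10 (3.13%) and 1 (11.6%). The fifth, chr16:31878179-31898941, had 80.2 tags per kb and flank cover of 11.9%. Of these 5, only the stretches on chromosomes 8 and 10 had less flank cover than the 8.42% of chromosomes 1 to 19. The chromosome 10 stretch had no other biotin peak within 114957 bp on its left and 14010 bp on its right. By contrast, chr8:123047511-123068189, with 111 tags per kb, had 92.1% of its flanks under peaks. Its right flank lay largely in another long stretch that began after 1042 bp.

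The stretches were unevenly spread over the chromosomes. Chromosome 4 had 37, chromosome 5 had 30, chromosomes 2 and 8 had 26 each, chromosome 11 had 25 and chromosome 15 had 21. Together these 6 chromosomes held 67.3% of the stretches and 41.3% of the biotin peaks on chromosomes 1 to 19. By length of chromosome, chromosome 4 had 23.8 stretches per 100 Mb (16.7 to 32.8), chromosome 11 had 20.5 (13.3 to 30.3) and chromosome 15 had 20.3 (12.6 to 31.0). Chromosome 1, the longest, had a single stretch, or 0.507 per 100 Mb (0.0128 to 2.83), although it carried 6.15% of the biotin peaks. Chromosome 13 had none, which allows up to 2.49 per 100 Mb (3 counts). Chromosome 7 had about as many biotin peaks per Mb as chromosome 2, 67.8 and 66.1, but 5.90 stretches per 100 Mb (2.70 to 11.2) against 14.3 (9.35 to 21.0).

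Along the chromosomes, 150 of the 245 stretches (61.2%, 54.8 to 67.4) lay in the last 25% of the length, the end away from the centromere in the mouse, where 36.6% of the biotin peaks lay. This interval and those of the rates by chromosome treat stretches as independent, yet 105 of the 245 lay within 100 kb of another. Stretches and peaks come from the same list, so the comparison is a description. The share in the last 25% varied between chromosomes. Chromosomes 4, 5, 8, 11, 12 and 15 each had over 10 stretches and over 75% of their stretches there. Together they had 128 of 153 (83.7%) there, beside 47.6% of their biotin peaks. On the other chromosomes it was 22 of 92 (23.9%), beside 29.9% of their biotin peaks, so the excess was not general. These 6 chromosomes were picked on the same counts. In the last 25% lay 32 of the 37 stretches on chromosome 4, 23 of 26 on chromosome 8, 22 of 25 on chromosome 11 and 12 of 14 on chromosome 12. It was 23 of 30 on chromosome 5, 16 of 21 on chromosome 15 and 13 of 26 on chromosome 2. Chromosome 17 had 0 of 15 there, chromosome 7 had 0 of 9 and chromosome 10 had 1 of 17.

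**Figure D3:**
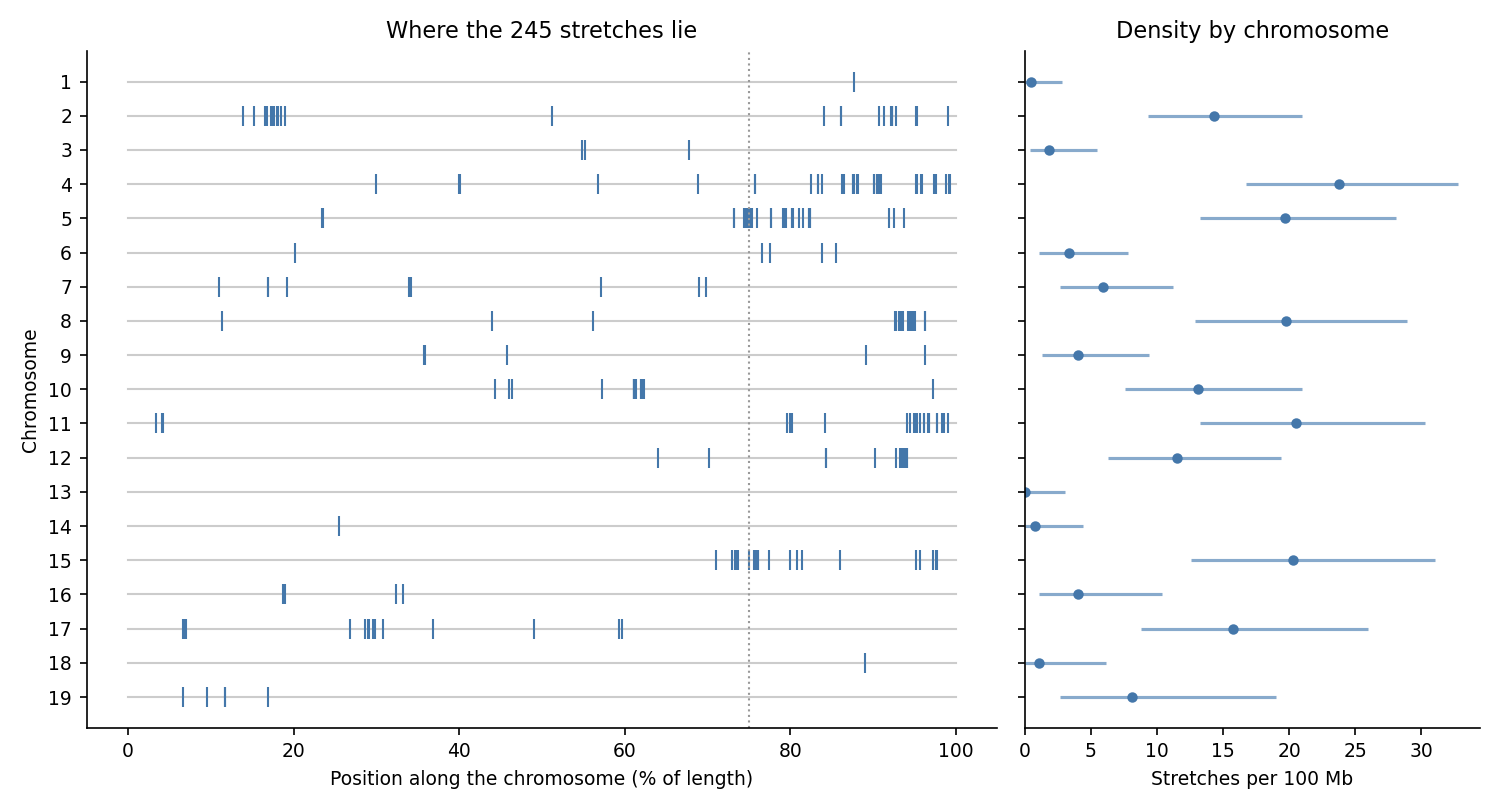
Left, each tick is 1 stretch at its position along the chromosome in % of length, with a dotted line at 75%. Right, stretches per 100 Mb with exact 95% Poisson intervals as bars. The ticks crowd near the far end of chromosomes 4, 8, 11 and 12, chromosome 13 has none, and the rates run from 0 to 23.8.

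Stretches also came in groups. Of 227 distances between neighbouring stretches on a chromosome, 150 were at most 1 Mb, 65 at most 100 kb and 26 at most 10 kb. With up to 100 kb between neighbours the 245 stretches formed 180 groups, of which 140 were a single stretch, 29 were pairs and 11 had 3 or more. The largest group, chr8:122673407-123106593, had 9 stretches in 433 kb that made up 58.4% of its span. Within 5 Mb of the same region, between 122000301 and 126871803, there were 23 stretches with a summed length of 638 kb. Next came chr10:80745825-81010303 with 5 stretches in 264 kb, and 6 groups had 4 stretches. The nearest neighbours of all were chr8:123047511-123068189 and chr8:123069232-123106593, 20.7 and 37.4 kb long, with 1042 bp between them, just over the joining distance.

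Endogenous Utf1 peaks were rare inside the stretches. They overlapped 7 of the 245 stretches by at least 1 bp, 1 peak in each, which is 2.86% of the stretches (1.16 to 5.80). Of all biotin stretches on chromosomes 1 to 19, 1.56% were overlapped, and of those of 10 to 20 kb 1.07%. Of single biotin peaks on these chromosomes 1.19% were. The share was highest in the long stretches, each of which also offers the most sequence for an overlap, so densities per Mb are given further on. The 61 stretches of 30 kb or more had none, which allows a share of up to 4.92%. In the 238 stretches without an endogenous peak, the nearest lay at a median distance of 164 kb (4.05 to 1247 kb).

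The 7 endogenous peaks had few tags, though mostly more than the median of their list, and a wide range of folds. They had 13 to 42 tags with a median of 16, and folds of 0.89 to 2.93 with a median of 1.48, whereas the endogenous list on these chromosomes had medians of 14 tags and a fold of 1.57. The smallest tag count in that list was 13. The best supported by fold was at chr17:56566450-56567110 in chr17:56545106-56569006, with a fold of 2.93 and 17 tags (9.90 to 27.2), 1270 bp from the biotin summit of a peak of 8068 bp with a fold of 13.1. The peak with the most tags, 42 (30.3 to 56.8), was in the tag-dense chromosome 10 stretch at chr10:57699728-57700878 and had a fold of 0.96. The endogenous peak in chr4:151652773-151674195 likewise had 25 tags and a fold of 0.89, and it touched 2 biotin peaks. Thus 2 of the 7 had a fold below 1, against 3.20% of the endogenous peaks on chromosomes 1 to 19.

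The remaining 4 had 13 to 16 tags. In chr4:140825769-140855213 the endogenous summit was 475 bp from a biotin summit of fold 9.04, the shortest distance of the 7. In chr11:97666121-97688237 it was 974 bp away, in chr17:6438816-6459805 1260 bp and in chr8:122796883-122825498 2625 bp. None of the 7 endogenous summits was within 250 bp of a biotin summit. The endogenous summits lay at 14.03 to 90.8% of the length of their stretch, 5 of them beyond 75%. Summit distance and position were not taken for endogenous peaks in shorter biotin stretches. Neither is therefore read as a trait of the long ones.

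By length of sequence, the stretches had 1.02 endogenous summits per Mb (0.411 to 2.10, 7 summits in 6.86 Mb). Chromosomes 1 to 19 as a whole had 3.89 per Mb (3.81 to 3.97). Sequence within 100 kb of a long stretch had 2.07 (1.63 to 2.59), sequence at 100 kb to 1 Mb 2.80 (2.56 to 3.06), and sequence farther away 4.01 (3.93 to 4.10). The rate inside was 0.254 times that beyond 1 Mb (exact interval of the ratio 0.102 to 0.525) and 0.365 times that at 100 kb to 1 Mb (0.146 to 0.757). Compared with the nearest 100 kb, the ratio was 0.494 with an interval of 0.192 to 1.07 that includes 1, so no difference from the immediate surroundings could be seen at this number of peaks. The surroundings themselves were lower than distant sequence, by a ratio of 0.516 (0.406 to 0.646). These intervals treat peaks as independent counts, which neighbouring peaks are not. The density of biotin summits moved with the same distances, with 293 per Mb inside the stretches, 232 within 100 kb and 49.2 beyond 1 Mb, and its part in the endogenous density was not tested.

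Among biotin stretches, the density of endogenous summits was lower in each longer class up to 20 kb. It was 10.2 per Mb (9.51 to 10.9) in stretches under 2 kb, 3.47 (3.05 to 3.92) at 2 to 5 kb, 1.73 (1.33 to 2.20) at 5 to 10 kb and 0.543 (0.260 to 0.998) at 10 to 20 kb. For the long stretches, with 1.02, the interval of the ratio included 1 against stretches of 10 to 20 kb (ratio 1.88, 0.608 to 5.47) and of 5 to 10 kb (0.591, 0.229 to 1.29). It lay below 1 against those of 2 to 5 kb (0.294, 0.117 to 0.616) and under 2 kb (0.100, 0.0403 to 0.208). These intervals, too, cover counting error in 1 library. Per stretch, the share with an overlapping endogenous peak was 1.73% under 2 kb, 1.15% at 2 to 5 kb and 0.970% at 5 to 10 kb. It was 1.07% at 10 to 20 kb and 2.86% in the long stretches. A like share over longer stretches gives fewer summits per Mb, so the ratios do not mean fewer endogenous peaks per stretch.

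**Figure D4:**
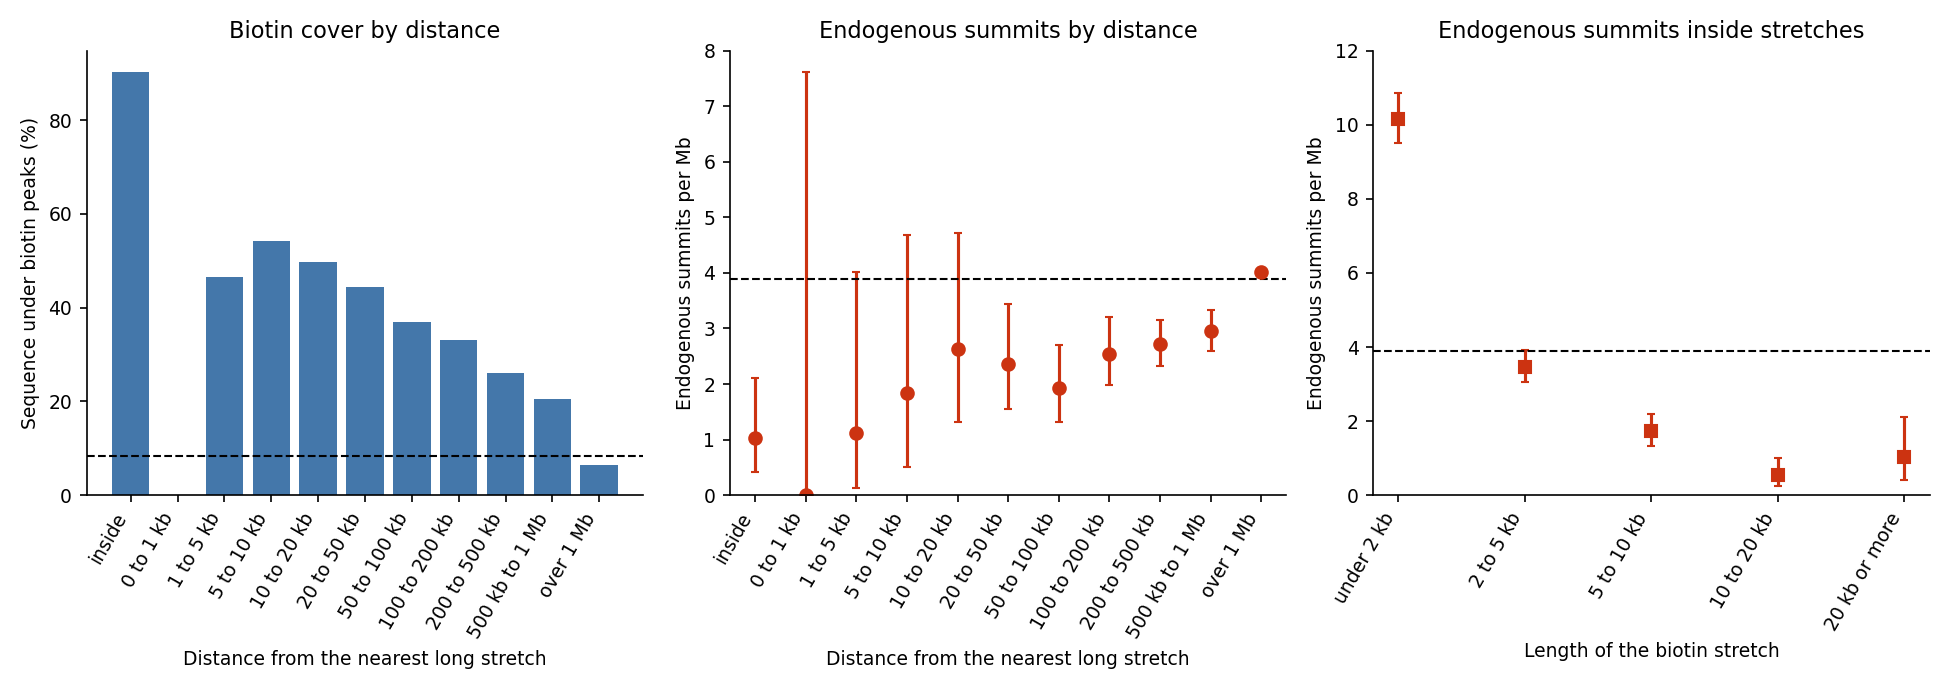
Left, share of sequence under biotin peaks by distance from the nearest long stretch, with every base of chromosomes 1 to 19 counted once (0 to 1 kb is empty by the rule). Middle and right, endogenous summits per Mb by the same distance and by length of the biotin stretch, with exact 95% Poisson intervals. Dashed lines are the values of chromosomes 1 to 19, 8.42% and 3.89 per Mb. Biotin cover falls with distance while endogenous summits are fewest inside and near the stretches.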

How the data were processed

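The data are 2 deposited peak lists, 1 per precipitation library. Per the submitters' processing notes the build is mm9, and the tools listed, with no role, are BWA 0.5.7 and R 2.15.2. Which program called the peaks, with which settings and control, was not given in the sources used here. Per the file headers, the authors listed for each peak a whole-number tag count that is not scaled for depth, a linear fold enrichment ratio, a score of 10 times the −log10 p-value, a false discovery rate in percent, and positions and widths in bp. The depth of the libraries is unknown because tags outside peaks are not listed.

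Peaks were joined as described in the report. Tags per kb are the summed tags of the peaks over the length of the stretch, gaps included. For the length of a chromosome the largest end in the lists was used. Shares carry exact Clopper-Pearson intervals and counts exact Poisson intervals at 95%, ratios of densities carry exact conditional binomial intervals, and an upper limit printed for a count of 0 is 3 counts. PCR copies cannot be recognised without molecular identifiers, so the printed intervals cover counting error only. Ratios of densities between classes of sequence were read by whether their interval includes 1, which describes these libraries, and no p-value was computed, since each group has 1 library. Joining and overlap were tested on simulated lists and gave the same 245 stretches and 7 endogenous peaks with bedtools 2.31.1. The work used scipy 1.17.1, pandas 2.3.3, numpy 2.4.6 and, for plots, matplotlib 3.10.9, under Python 3.11.15.

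The members, the rule for named regions and the alternatives were chosen with earlier results of these data known. Named were the 10 longest stretches, the 5 with the most and the 5 with the fewest tags per kb, those just inside and outside the length limit, single-peak stretches and the nearest pair. The rule also named stretches with 2 or more endogenous peaks, of which there were none. The stretches with 1 endogenous peak, those with little flank cover, the evenly spaced chromosome 8 stretch and that with the highest fold were added after the values had been seen. Annotation and sequence of mm9 were not used here, so stretches are not assigned to genes.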

Additional observations from a re-analysis of the deposited data

How the results depend on the processing

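The choices of joining distance and length set how many stretches there are and how dense they look. Endogenous density and share stayed within their intervals with joining up to 500 and 2000 bp and for stretches of 15 kb or more. In place of 245 stretches there were 7 with touching peaks only, 77 with joining up to 500 bp, 944 with joining up to 2000 bp, 80 from peaks at or above the median fold and 62 without the widest 1% of peaks. The median of 67.7 tags per kb became 77.8 with joining up to 500 bp, 53.3 with 2000 bp, 65.6 for stretches of 15 kb or more and 75.1 over the length under peaks. The covered share of 90.3% became 96.3% and 78.5% with the same joining distances and 91.6% for stretches of 30 kb or more. The median flank cover of 51.7% became 59.6% and 41.8% with these distances, 49.3% and 55.2% for stretches of at least 15 and 30 kb, and 49.1% in flanks of 100 kb. The cause was not tested beyond what these settings change by construction. For stretches of 30 kb or more, the endogenous density of 1.02 per Mb and the share of 2.86% became 0, with 61 stretches and 2.51 Mb left, where 3 counts would be 1.20 per Mb. That limit is above 1.02 per Mb, so the 0 does not show that the longer stretches differ. Leaving out the 8 stretches over 110 tags per kb was added after the data had been seen and left 5 endogenous peaks, 0.766 per Mb, and 2.11% of stretches. The other alternatives gave 0.875 to 1.46 endogenous peaks per Mb, the highest with joining up to 500 bp. Of 38 alternative values, 19 moved and 19 stayed within their interval. No paired analysis was possible because each group has 1 library, and no library could be left out. Unknown depth and the short endogenous list limit how small a difference in endogenous density could be seen.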
